A study of Homo sapiens with 3 samples.

Results

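The subject is a set of 41 genes of DNA replication and S phase. They were chosen by symbol and not by a measured value, though with earlier results of these data known. They are described by their levels in 3 cultures and by whether they were high in the same cells. All 41 symbols were found among the 18692 symbols listed in any of the 3 tables, and all 41 reached 1 CPM (UMIs of a gene per 1000000 UMIs of its library) in at least 1 library, as did 12261 genes in all. The cultures were H460, a human large-cell lung carcinoma cell line, and its 2 derivatives, mdR-H460 (mid-term dR-H460 in the labels) and ldR-H460 (long-term dR-H460). Per the labels' protocols, cancer cells were moved from RPMI to Pluriton medium and set on a feeder layer of gamma-irradiated human fibroblasts, with medium conditioned by such fibroblasts in the presence of bFGF, to obtain reprogrammed cells. The protocol text used here ends before the later steps, and neither the length of treatment, nor whether a derivative is a clone, nor whether feeder cells remained when the cells were taken is given in the sources used here. Polyadenylated RNA of single cells was counted by UMIs, tags that mark each captured molecule, in 1 library per culture. No difference between cultures therefore has a replicate check, no p-value is given, and the range after each value is a 95% interval for counting error only. Where 3 values follow each other, they belong to H460, mdR-H460 and ldR-H460 in this order.

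DNA replication starts with licensing, in which the MCM2 to MCM7 ring is loaded on origins in G1, with CDC6 among the loaders and geminin (GMNN) as the inhibitor that prevents a repeat. In S phase the ring is activated with CDC45 and the GINS complex, polymerase alpha with primase lays primers, the clamp PCNA holds the elongating polymerases, and histones and nucleotides are supplied as the fork moves. Transcription of many of these genes is controlled by E2F factors, which RB family proteins hold back in G1. In proliferating tumour lines such genes are used as a readout of cells in or near S phase.

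The libraries held 4531, 5151 and 4956 cells, and the median cell had 14685, 11736 and 12342.5 UMIs. No more than 3998 genes were detected in any ldR-H460 cell, while cells with up to 4987 and 4993 genes were present in H460 and mdR-H460. Mitochondrially encoded transcripts took 4.80%, 5.21% and 6.80% of UMIs. Libraries shared 24 to 36 cell barcodes by pair, under 0.8% of either. Of the 5 epithelial markers, KRT8, KRT18, KRT19 and EPCAM had UMIs in every library, but only 3 of the 5 reached 1 CPM in any. CDH1, not listed in any table, was set to 0, and the 5 markers summed to 3234, 2575 and 1738 CPM. The 8 fibroblast markers summed to 11.1, 3.06 and 4.68 CPM with 3, 4 and 4 of them at 0, and the 4 leukocyte markers to at most 0.0600 CPM. The share of the UMIs of the replication genes that came from free RNA was not tested.

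Promoters of the genes were examined because E2F factors are the textbook regulators of this group. RefSeq promoter sequences on GRCh38.p14, 250 bases before to 50 bases after each start, were matched for 32 of the 41 genes (POLD3, MCM4, E2F8, WDR76, CCNE2, ATAD2, DSCC1, RPA2 and MCM5 had no entry), and a gene with several starts counted once if any of its promoters held the motif. An E2F word, one of TTTCCCGC, TTTGGCGC, TTTGCCGC or TTTCGCGC on either strand, was found in 19 of the 32 (59.4%), against 6.83% of the 9110 matched genes at 1 CPM or more in a library and 3.99% of all 27305 genes in the reference. The NF-Y word CCAAT on either strand was present in 24 of 32 (75%, against 43.4% of the 9110), and the CHR words TTTGAA or TTCGAA on either strand in 5 of 32 (15.6%, against 15.5%). Among 45 matched genes of G2 and mitosis (the G2/M list) the E2F and CHR words were the other way round, with an E2F word in 3 (6.67%) and a CHR word in 35 (77.8%). The NF-Y word was in 32 of these (71.1%), near the share in the set. The 100-base stretches below are shown since they belong to genes whose levels or cell-to-cell pattern are described further on; they read 5′ to 3′ on the strand of the gene, with the E2F words in capitals. All but those of CASP8AP2 and MCM6 end at the base before the start. GCGGGAAA is TTTCCCGC, and GCGCGAAA is TTTCGCGC, read from the other strand, and each pair of words in MCM6 overlaps by 4 bases. A word is a match of letters and not evidence that a factor was bound.
DTL (chr1:212035648-212035747, plus strand): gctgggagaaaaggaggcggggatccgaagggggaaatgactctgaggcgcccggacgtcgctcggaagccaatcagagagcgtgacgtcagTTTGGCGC
GINS2 (chr16:85688955-85689054, minus strand): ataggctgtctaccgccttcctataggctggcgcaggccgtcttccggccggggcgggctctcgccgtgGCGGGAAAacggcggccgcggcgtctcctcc
PCNA (chr20:5126623-5126722, minus strand): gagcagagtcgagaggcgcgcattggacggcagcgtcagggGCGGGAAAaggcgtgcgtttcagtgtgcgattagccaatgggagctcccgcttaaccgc
CDCA7 (chr2:173354772-173354871, plus strand): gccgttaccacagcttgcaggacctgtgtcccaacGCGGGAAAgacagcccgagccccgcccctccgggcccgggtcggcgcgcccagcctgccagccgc
TYMS (chr18:657553-657652, plus strand): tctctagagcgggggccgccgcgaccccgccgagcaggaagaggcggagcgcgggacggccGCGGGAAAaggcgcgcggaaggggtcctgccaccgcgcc
CASP8AP2 (chr6:89829680-89829779, plus strand): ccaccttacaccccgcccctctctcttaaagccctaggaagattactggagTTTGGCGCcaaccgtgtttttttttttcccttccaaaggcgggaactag
MCM6 (chr2:135876504-135876603, minus strand): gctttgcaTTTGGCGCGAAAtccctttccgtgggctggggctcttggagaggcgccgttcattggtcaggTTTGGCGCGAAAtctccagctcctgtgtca

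As a group the genes were lower in both derivatives than in H460, and their median ratio lay below that of all genes. Their summed level was 1718 CPM in H460, 1536 in mdR-H460 and 1463 in ldR-H460. Against H460 the median log2 CPM ratio of the 41 was -0.30 in mdR-H460 and -0.32 in ldR-H460, beside -0.16 and -0.13 over all 12261 genes at 1 CPM or more. In mdR-H460, 12 of the 41 (29.3%) were below H460 by 1.5-fold or more and 0 were above it by as much, where 22.2% and 6.66% of all genes were. In ldR-H460, 11 were lower and 1 was higher, against 22.1% and 11.6% of all genes. Between the derivatives, 5 were lower and 3 higher in ldR-H460 than in mdR-H460, against 11.2% and 14.8%. The shares of lower genes were near the background, and members higher than H460 were fewer than it. Of the members, 6 were lower in both derivatives, 6 in mdR-H460 only by this threshold, 5 in ldR-H460 only, 1 was higher in ldR-H460, and 23 stayed within 1.5-fold of H460 in both. H460 was the highest of the 3 libraries for 24 of the 41 genes, mdR-H460 for 9 and ldR-H460 for 8.

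**Figure D1:**
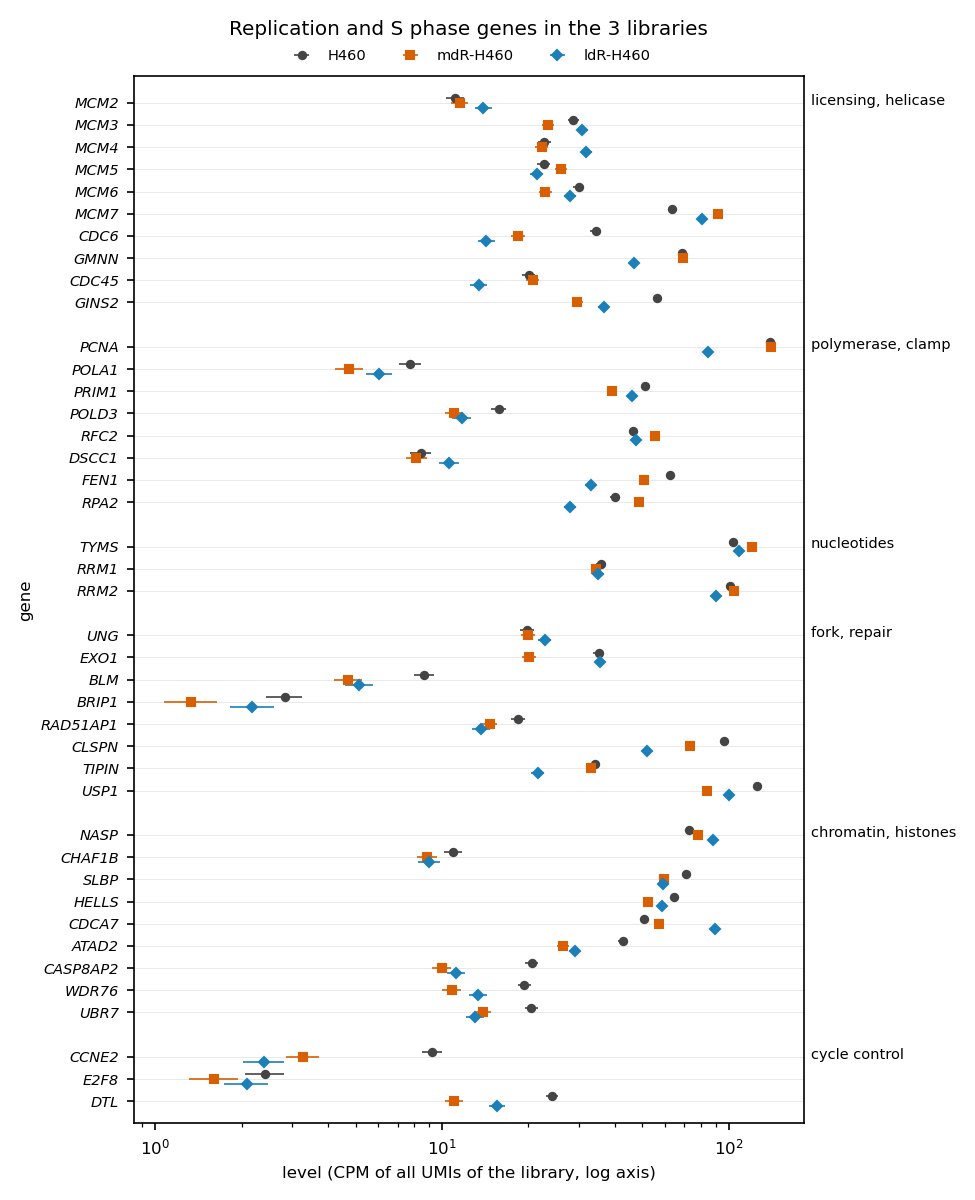
Levels of the 41 genes, grouped by role, in CPM of all UMIs of the library (log axis), with 1 point per library and 95% counting intervals. The points of a gene lie close together for most genes; CCNE2, CDC6, GINS2, CASP8AP2 and DTL have H460 set apart to the right, and PCNA, FEN1 and CLSPN have ldR-H460 set apart to the left.

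**Figure D2:**
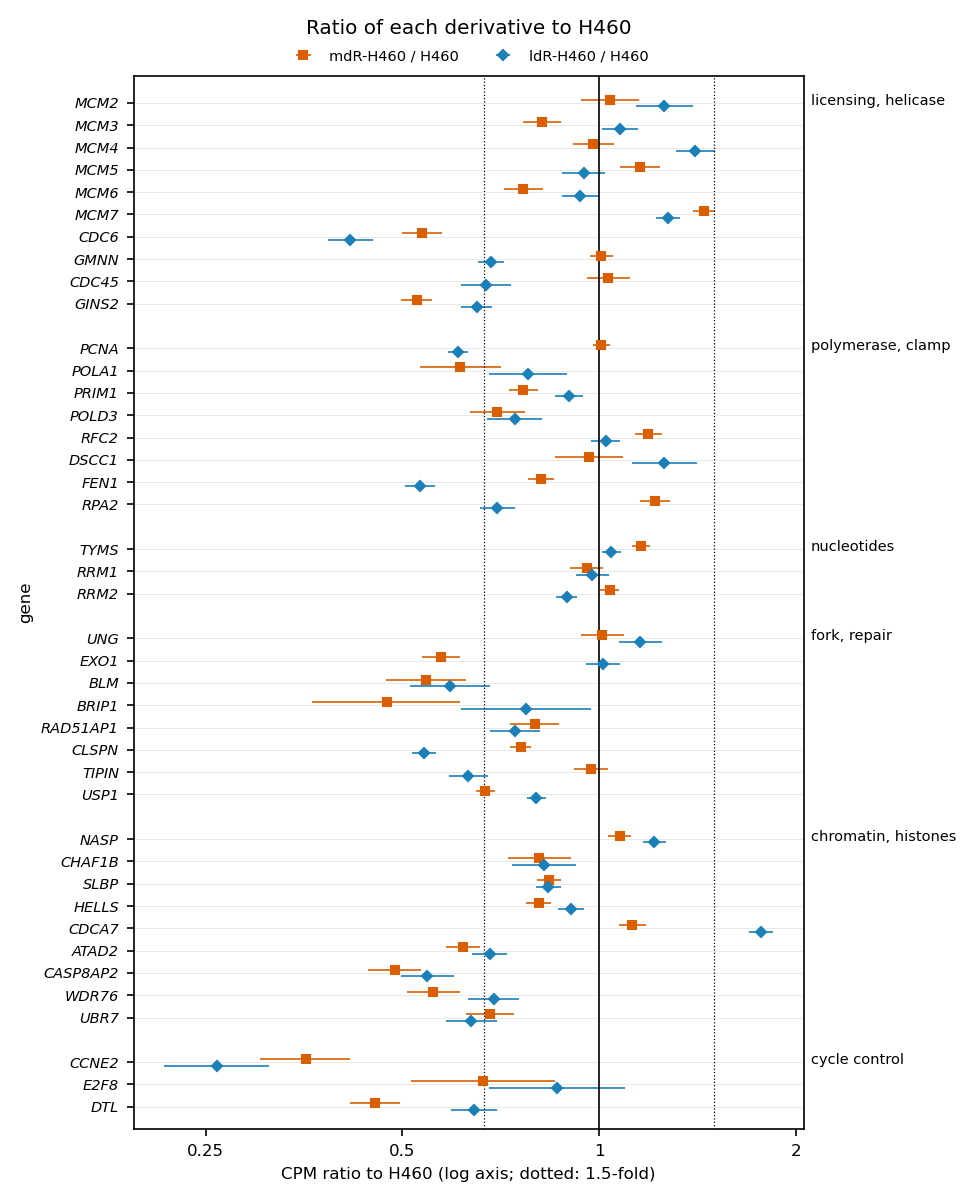
CPM ratio of each derivative to H460 for the 41 genes (log axis), with 95% counting intervals and dotted lines at 1.5-fold in either direction. CCNE2 has the lowest ratio in both derivatives, and CDCA7 in ldR-H460 is the 1 point beyond the upper dotted line.

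The helicase ring itself differed little. MCM2 stood at 11.1, 11.5 and 13.9 CPM, MCM3 at 28.7, 23.5 and 30.8, MCM4 at 22.7, 22.2 and 31.9, MCM5 at 22.6, 26.1 and 21.4, and MCM6 at 29.9, 22.9 and 28.0. MCM7 was highest in mdR-H460, with 63.4, 91.7 and 80.8 CPM. None of the 6 subunits passed 1.5-fold in any pair of libraries with scaling by the library total. The nearest was MCM7, 1.45-fold higher in mdR-H460 than in H460 (1.39 to 1.5), which passes 1.5-fold with TMM or DESeq2 scaling. Summed over the ring, mdR-H460 was 1.11-fold (1.08 to 1.14) and ldR-H460 1.16-fold (1.13 to 1.19) higher than H460.

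The loader and the activators of the ring behaved otherwise. CDC6 (chr17:40287633-40304657), the ATPase that helps load the MCM ring, stood at 34.3 CPM in H460, 18.4 in mdR-H460 and 14.3 in ldR-H460, and was 1.87-fold (1.74 to 2.01) and 2.40-fold (2.22 to 2.60) lower in the derivatives. GINS2 (chr16:85676198-85690073), a subunit of the GINS complex, stood at 56.4, 29.6 and 36.6 CPM, 1.90-fold (1.80 to 2.01) lower in mdR-H460 and 1.54-fold (1.46 to 1.62) lower in ldR-H460. CDC45, which joins GINS at the active helicase, was at 20.03 and 20.7 CPM in H460 and mdR-H460 and at 13.4 in ldR-H460, 1.54-fold (1.41 to 1.68) lower than in mdR-H460. This ratio fell under 1.5-fold in 4 of 7 alternatives, to a log2 ratio of -0.21 with cells weighted equally. Geminin (GMNN) followed the same order of libraries, with 68.6, 69.1 and 46.8 CPM, and stayed within 1.5-fold.

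Among the 8 polymerase and clamp genes, ldR-H460 was the lowest library for PCNA, FEN1 and RPA2, mdR-H460 for POLA1, PRIM1, POLD3 and DSCC1, and H460 for RFC2. PCNA (chr20:5114953-5126626), the sliding clamp, was level in H460 and mdR-H460 at 139 and 140.3 CPM and stood at 84.7 in ldR-H460, 1.64-fold (1.59 to 1.70) below H460. FEN1, the nuclease that trims Okazaki fragment flaps, was at 62.2, 50.7 and 33.1 CPM, 1.88-fold (1.78 to 1.98) lower in ldR-H460 than in H460. RPA2, a subunit of the single-strand binding complex, was highest in mdR-H460 (39.99, 48.6 and 27.9 CPM) and 1.74-fold (1.64 to 1.85) below that in ldR-H460. POLA1, the catalytic subunit of polymerase alpha, was at 7.74, 4.74 and 6.02 CPM, with the mdR-H460 level 1.63-fold (1.41 to 1.88) under that of H460. The other 4 genes of this role, PRIM1 (primase), POLD3 (a polymerase delta subunit), RFC2 (clamp loader) and DSCC1 (an alternative loader subunit), stayed within 1.5-fold in every pair; RFC2, for one, was at 46.4, 55.1 and 47.4 CPM.

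The 3 genes of nucleotide supply were the steadiest role. TYMS, thymidylate synthase, was at 104, 120.1 and 108 CPM, RRM1, the large subunit of ribonucleotide reductase, at 35.9, 34.3 and 35.0, and RRM2, its small subunit, at 101, 105 and 90.0 CPM. The widest of their 9 ratios was 1.16-fold, and the interval of RRM1 held no difference in all 3 pairs.

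Fork and repair genes were divided. CLSPN, which carries the ATR checkpoint signal to CHK1, was at 96.3, 73.0 and 52.0 CPM, 1.85-fold (1.77 to 1.93) lower in ldR-H460 than in H460. TIPIN, a fork protection partner, was at 34.2, 33.2 and 21.5 CPM, 1.59-fold (1.48 to 1.70) lower in ldR-H460. BLM, the helicase that resolves recombination intermediates, was at 8.67, 4.71 and 5.13 CPM, lower by 1.84-fold (1.60 to 2.12) and 1.69-fold (1.47 to 1.95). The exonuclease gene EXO1 was lower in mdR-H460 alone: 35.1 CPM in H460, 20.1 in mdR-H460 and 35.6 in ldR-H460, with the 2 outer libraries within counting error of each other (ratio 1.013, 0.955 to 1.07). BRIP1, a helicase that works with BRCA1, was likewise lowest in mdR-H460, at much lower counts and with H460 highest (187, 89 and 132 UMIs; 2.83, 1.34 and 2.18 CPM), with mdR-H460 2.11-fold (1.63 to 2.75) under H460. UNG (uracil glycosylase), RAD51AP1 (a recombination factor) and USP1 (which removes ubiquitin from PCNA) stayed within 1.5-fold of H460; USP1 in mdR-H460 was at 83.9 CPM against 125, 1.49-fold lower (1.44 to 1.54).

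In the chromatin and histone group, CDCA7 and NASP were higher in both derivatives than in H460 and the other 7 genes lower. CDCA7 (chr2:173354820-173368997), a partner of the remodeller HELLS, was at 50.6 CPM in H460, 56.9 in mdR-H460 and 89.5 in ldR-H460, 1.77-fold (1.69 to 1.85) higher in ldR-H460 than in H460. HELLS itself was at 64.6, 52.2 and 58.5 CPM. CASP8AP2, a regulator of histone gene expression, was lower in both derivatives, at 20.5, 9.98 and 11.2 CPM, by 2.06-fold (1.87 to 2.26) and 1.83-fold (1.67 to 2.01). ATAD2, a bromodomain ATPase, was at 42.7, 26.4 and 28.99 CPM and WDR76 at 19.4, 10.8 and 13.4, each over 1.5-fold lower in mdR-H460. UBR7, which binds histone H3, was at 20.5, 13.9 and 13.05 CPM. The histone chaperones NASP (72.7, 78.1 and 88.2 CPM) and CHAF1B (10.9, 8.86 and 9.01) and the histone mRNA binding protein SLBP (70.8, 59.2 and 59.2) stayed within 1.5-fold in each pair.

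The largest difference in the set belonged to CCNE2, cyclin E2, which drives entry into S phase with CDK2. It had 609 UMIs in H460, 218 in mdR-H460 and 145 in ldR-H460, or 9.20, 3.27 and 2.40 CPM, and was 2.81-fold (2.40 to 3.30) and 3.84-fold (3.20 to 4.63) lower in the derivatives. DTL (chr1:212035553-212107400), the substrate receptor of the ligase that removes CDT1 in S phase, was at 24.2, 10.99 and 15.6 CPM, 2.20-fold (2.02 to 2.41) and 1.56-fold (1.43 to 1.69) lower. E2F8, a repressor of the E2F family, was at 2.42, 1.61 and 2.08 CPM; its 160, 107 and 126 UMIs gave a ratio of 1.51-fold (1.17 to 1.94) in mdR-H460, whose interval reaches well below the threshold. All 3 cycle control genes were thus lowest in a derivative, CCNE2 in ldR-H460 and the other two in mdR-H460.

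Genes with and without an E2F word had similar medians. The 19 genes with a word had a median log2 ratio to H460 of -0.31 in mdR-H460 and -0.36 in ldR-H460, and the 13 matched genes without a word had -0.29 and -0.28. Of the 19 with a word, 6 were at least 1.5-fold below H460 in mdR-H460 and 8 in ldR-H460. Of the 13 without, 2 and 2 were, beside 22.2% and 22.1% of all genes. Among the 8, DTL, GINS2, TIPIN and UBR7 did not pass 1.5-fold with TMM or DESeq2 scaling. CCNE2, WDR76, ATAD2 and E2F8, lower in mdR-H460, had no promoter entry and are in neither group. The counts are therefore not read as a difference between the groups. CDCA7, the gene higher in ldR-H460, and PCNA, lower there, both hold the word GCGGGAAA in the stretches above.

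Of 60 other replication genes, 7 were lower and 1 higher than in H460 by this threshold in mdR-H460, and 3 were lower and 3 higher in ldR-H460, fewer lower genes than the 22.2% and 22.1% of all genes. Their median log2 ratio was -0.11 and 0.00. ATAD5, which unloads PCNA, was at 24.7, 8.69 and 11.7 CPM, and ASF1A, a histone chaperone, at 41.3, 77.2 and 58.2 CPM. CDT1, the licensing partner of CDC6, was at 28.7, 30.6 and 50.3 CPM and so was 1.75-fold higher in ldR-H460 than in H460, where CDC6 was 2.40-fold lower. SLFN11, which blocks stressed forks, had 4.85 CPM in H460, 0 UMIs in mdR-H460 (at least 108-fold lower against the floor of 3 UMIs per library) and 0.149 CPM in ldR-H460.

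Regulators of the G1 to S transition were likewise mixed, with 5 of 21 measured genes lower and 2 higher in mdR-H460, and 2 lower and 3 higher in ldR-H460, beside 22.2%, 6.66%, 22.1% and 11.6% of all genes. CCNE1, the other cyclin E gene, was at 14.6, 10.6 and 7.21 CPM, the same order of libraries as CCNE2. E2F1, an activator, was at 35.6, 21.8 and 26.1 CPM, and E2F4, which mostly represses, at 32.8, 54.9 and 54.4. CDK6 was lowest in mdR-H460 (36.0, 12.9 and 30.4 CPM), and SKP2, which marks p27 for destruction, was highest in ldR-H460 (18.8, 19.2 and 34.7 CPM). Of the cycle brakes, CDKN1A (p21) was at 40.6, 40.9 and 21.6 CPM and CDKN2C (p18) at 10.6, 16.2 and 21.7, while CDKN2A and CDKN2B were not listed in any table.

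The spread of the genes over single cells differed more between the cultures than their summed level did. To remove depth per cell, UMIs were drawn at random until every cell had 5000, which kept 3850, 3880 and 4521 cells and left out 15.0%, 24.7% and 8.78% as too shallow. The mean cell then held 8.22, 6.88 and 7.17 UMIs of the 41 genes together, and the median cell 8, 7 and 7. The tenth and ninetieth percentiles were 1 and 16 UMIs in H460, 1 and 13 in mdR-H460, and 2 and 12 in ldR-H460. The variance of this sum was 4.44 times its mean in H460, 3.62 in mdR-H460 and 2.18 in ldR-H460, where independent counting alone would give 1. Cells with 14 or more UMIs of the set made up 19.9% (18.7% to 21.2%), 9.82% (8.90% to 10.8%) and 6.55% (5.84% to 7.31%) of the thinned cells of each library. Cells with 0 UMIs were also rarest in ldR-H460, at 5.38%, 7.32% and 2.88%.

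**Figure D3:**
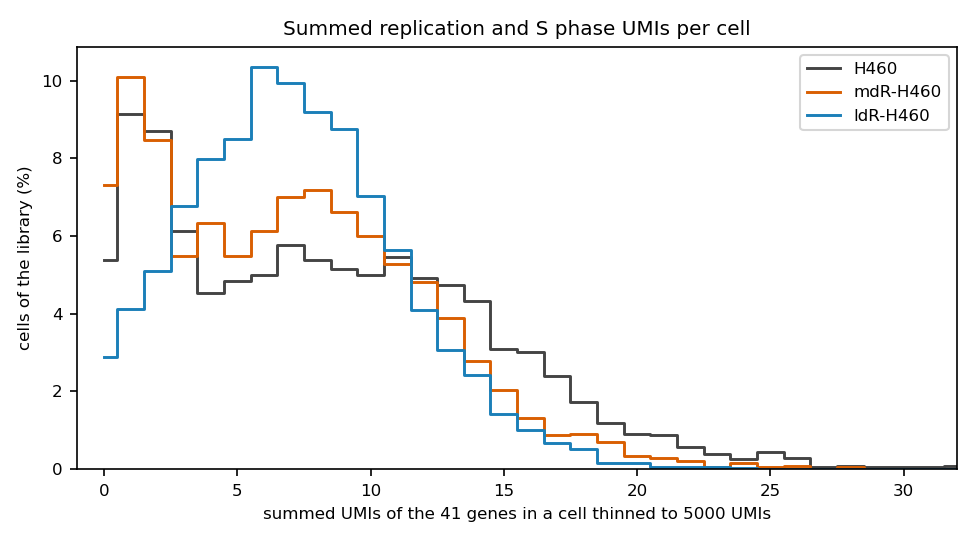
Share of cells (%) by the summed UMIs of the 41 genes in cells thinned to 5000 UMIs, 1 line per library. H460 and mdR-H460 have a crowd of cells at 0 to 2 UMIs and a broad shoulder beyond 5, while ldR-H460 has 1 hump around 6 UMIs with few cells at either end.

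For PCNA, CDCA7 and CCNE2 the library that stood apart in level also did so in the share of thinned cells with a UMI, which was not so for every gene. PCNA was seen in 42.1% (40.5% to 43.7%), 40.03% and 31.3% of cells (61.6%, 54.9% and 52.7% before thinning). CDCA7 was seen in 20.6%, 20.6% and 33.5%, and 41.1%, 36.9% and 56.5% before thinning. CCNE2 was seen in 4%, 1.62% and 1.42%, and 11.4%, 3.94% and 2.91% before thinning. For TYMS the share was 34.1%, 36.6% and 40.3%, for RRM2 30.8%, 31.0% and 32.5%, and for MCM7 22.4%, 29.5% and 31.0%. These shares were highest in ldR-H460 although the CPM of all 3 genes was highest in mdR-H460, so no order is read from them; before thinning they were 54.9%, 50.8% and 63.8% for TYMS, 46.0%, 44.4% and 55.4% for RRM2, and 43.5%, 45.9% and 54.6% for MCM7.

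The members were higher in cells rich in the other members, with an interval above 1 for 41, 40 and 41 of the 41; the exception was BRIP1 in mdR-H460, with 6 UMIs in the top and 1 in the bottom 25% of cells (0.728 to 276). Thinned cells of a library were ranked by the summed UMIs of the other 40 genes, and the CPM of the gene in the top 25% was divided by that in the bottom 25%. The ratio was at least 1.5-fold for 41 of 41 genes in each library, beside 18.1%, 25.1% and 14.6% of the 6171, 5642 and 5851 other genes at 10 CPM or more. Its median over the set was 7.81 in H460, 6.62 in mdR-H460 and 2.58 in ldR-H460, and over the other genes 1.08, 1.12 and 1.13. At a 2-fold threshold, 40, 41 and 35 members passed, beside 7.45%, 11.3% and 2.00% of the other genes. Since cells of 1 library share their library preparation and free RNA, these ratios are descriptions of that library.

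The genes of the set differed in how sharply they separated the cells. RRM2 had the highest top-to-bottom ratio of the set in H460 and not in the derivatives. It stood at 170 and 6.86 CPM in the top and bottom 25% of H460 cells, 151 and 9.69 in mdR-H460, and 99.1 and 56.6 in ldR-H460. The ratio was 24.8 (17.5 to 36.3), 15.6 (11.6 to 21.4) and 1.75 (1.52 to 2.01), the last among the lowest of the set in ldR-H460, and CDC6 had the highest in mdR-H460. The other nucleotide genes moved alike: RRM1 had ratios of 5.08, 4.27 and 1.52, and TYMS 6.17, 5.48 and 1.77. PRIM1 had 7, 7.70 and 1.56.

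Contrast in ldR-H460 varied within roles. Among licensing and helicase genes it ran from 1.93 for MCM5, with 13.2 and 6.48 in the other libraries, to 4.69 for CDC6. CDC6 had ratios of 13.8 (9.05 to 22.1), 21.1 (10.0 to 53.5) and 4.69 (3.12 to 7.27). CCNE2 had 85 UMIs in the top and 4 in the bottom 25% of H460, 32 and 0 in mdR-H460 (at least 10.7-fold against the floor of 3 UMIs) and 31 and 5 in ldR-H460 (6.2-fold, 2.39 to 20.4). DTL had 14.4, 17.4 and 3.53, and UNG 6.54, 3.82 and 4.41, the ldR-H460 ratio of UNG lying inside the intervals of the other libraries. At the low end, UBR7 had 1.56 (1.16 to 2.10), 2.30 (1.48 to 3.66) and 2.00 (1.41 to 2.88), and NASP 2.95, 2.78 and 1.90.

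Both ends of the ranking contributed to the smaller contrast of ldR-H460. Summed over the 41 genes, the top 25% held 2776 CPM in H460, 2205 in mdR-H460 and 1896 in ldR-H460, and the bottom 25% 418, 363 and 817 CPM. In the bottom 25%, 36 of 41 genes were higher in ldR-H460 than in H460, 29 of them at least 1.5-fold (13.3% of other genes), and in the top 25% 38 of 41 were lower, 21 of them at least 1.5-fold (21.5% of other genes). Median UMIs per cell before thinning were 17352.5 and 13642 in the top and bottom 25% of H460, 19302.5 and 9870.5 in mdR-H460, and 13355.5 and 11598 in ldR-H460, so the rank also followed depth; its part in the result was not tested. Restricting all libraries to cells with under 4000 detected genes gave median ratios of 8.50, 7.06 and 2.58, and variances of the summed UMIs 4.81, 3.88 and 2.18 times the mean.

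G2/M genes went with the set in H460 and mdR-H460 and, by count, no more than other genes did in ldR-H460. Of the list of G2/M genes at 10 CPM or more, 42 of 45, 48 of 49 and 7 of 50 were at least 1.5-fold higher in the top 25% of cells, with median ratios of 7.78, 8.17 and 1.21. Of all genes outside the set at 10 CPM or more, 18.1%, 25.1% and 14.6% were, with medians of 1.08, 1.12 and 1.13. Their summed level in the top and bottom 25% was 4847 and 1595 CPM in H460, 5352 and 1352 in mdR-H460, and 4368 and 3570 in ldR-H460. The other replication genes kept their link with the set in all 3, at 35 of 42, 30 of 35 and 30 of 40, with medians of 4.17, 3.72 and 1.91. Of these, MCM10, an initiation factor, had ratios of 67.0, 30.8 and 4.86, and of the regulators E2F1 had 15.9, 8.54 and 2.94. No intervals were computed for these ratios, and a ratio over a count raised to the floor of 3 UMIs would be a lower bound. Of the 4 cycle brakes at 10 CPM or more, CDKN1A, the p21 gene, ran the other way in every library, with 0.484, 0.453 and 0.464. The other brakes did not: CDKN2C had 3.38, 2.03 and 1.62, WEE1 1.62, 1.20 and 1.46, and GADD45A 1.14, 0.978 and 1.04.

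Pairs of members were only weakly correlated from cell to cell. Over the 820 pairs, the median Pearson correlation of log-transformed thinned counts was 0.057, 0.043 and 0.023 in the 3850, 3880 and 4521 cells, and the highest was 0.27 and 0.20 for RRM2 with CLSPN in H460 and mdR-H460 and 0.099 for SLBP with CDCA7 in ldR-H460. At 5000 UMIs per cell most members have 0 or 1 UMI, so correlations of this size are not read as a finding. Sums over roles hold more counts. In cells ranked by the licensing and helicase genes alone, the fork and repair genes were 3.37-fold, 2.64-fold and 1.85-fold higher in the top than in the bottom 25% of cells, and the nucleotide genes 3.48-fold, 2.92-fold and 1.42-fold. Ranked by the 3 cycle control genes, cells gave ratios for the licensing and helicase genes of 1.38 (1.29 to 1.48), 1.07 (0.996 to 1.15) and 1.09 (1.02 to 1.17). This ranking could not order most cells, since DTL, CCNE2 and E2F8 were seen in 10.6%, 4% and 1.19% of thinned H460 cells. Each was seen in a smaller share of cells of the derivatives. Both ends of the ranking thus held cells with 0 UMIs placed at random, and no conclusion is drawn from these ratios.

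To set apart the position of a cell in the cycle from the level of a gene, thinned cells were divided by 2 sums, the UMIs of the 41 genes (7 or more, the median of all cells) and the UMIs of the G2/M list (19 or more). These are ranges of 2 scores and not phases or cell types, and 16.1%, 20.3% and 29.5% of cells lay within 1 UMI of the first limit. Cells low in both made up 37.4%, 36.2% and 21.8%, cells high in the replication sum only 21.5%, 12.3% and 21.4%, cells high in both 34.8%, 38.4% and 32.9%, and cells high in the G2/M sum only 6.31%, 13.1% and 23.9%. For each gene described, its own UMIs were left out of the sum.

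Members differed in the range that held their highest level, which was cells high in the replication sum only for 19, 27 and 28 genes, cells high in both for 22, 14 and 13, and cells high in the G2/M sum only for 0 in each library. CCNE2 was highest in cells high in the replication sum only, in all 3 libraries, at 16.02, 8.44 and 6.82 CPM, against 3.28, 1.95 and 0.739 CPM in cells high in the G2/M sum only. CDC6 stood at 61.2, 37.0 and 24.3 CPM against 17.1, 11.5 and 8.07, UNG at 36.1, 42.6 and 36.2 against 8.87, 12.2 and 12.9, and DTL at 43.1, 25.5 and 24.8 against 15.1, 11.9 and 11.8. MCM6 had the same order, with 43.5, 42.7 and 45.6 CPM against 21.3, 18.1 and 22.3. RRM2 was highest in cells high in both, at 194, 149.9 and 103 CPM, and of the 2 other ranges the G2/M one was the higher: 68.6, 98.3 and 89.4 CPM in cells high in the replication sum only, and 150.3, 121 and 101 CPM in cells high in the G2/M sum only. In H460, RRM1 and TYMS were also higher in the latter range, while in the derivatives the intervals of both genes held no difference. Over the set, 33, 36 and 38 of the 41 genes were higher in cells high in the replication sum only than in cells high in the G2/M sum only, with the interval of the ratio above 1 for 19, 23 and 30 and below 1 for 3, 1 and 1. The first range was drawn for a high sum of the other members and the second for a low sum. Median sums of the set were 11, 11 and 10 UMIs against 5, 5 and 5. Since members were higher in cells rich in the other members, the direction of these counts partly follows from the division. The same holds for the 0 genes highest in the G2/M range, and no place in the cycle is read from either.

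**Figure D4:**
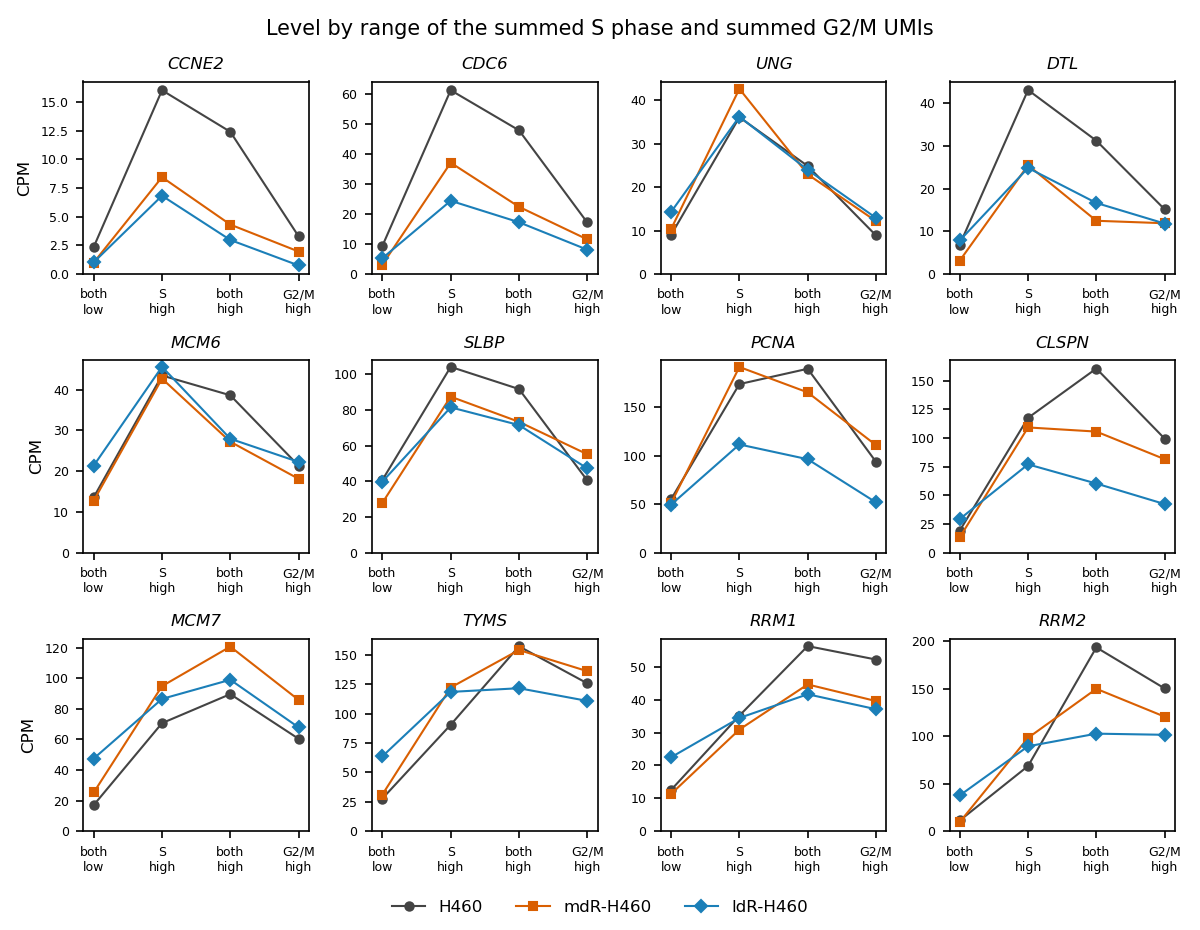
CPM of 12 genes in 4 ranges of thinned cells, divided by the summed UMIs of the other 40 replication and S phase genes and by the summed G2/M UMIs, 1 line per library (counting intervals not drawn). CCNE2, CDC6, UNG, DTL and MCM6 are highest in cells high in the replication sum only, and RRM1 and RRM2 in cells high in both; CCNE2 and CDC6 lie above the other libraries in H460 in every range.

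Differences between cultures persisted within these ranges for some genes. In cells high in the replication sum only, CDC6 was 1.65-fold (1.29 to 2.13) lower in mdR-H460 and 2.51-fold (2.01 to 3.16) lower in ldR-H460 than in H460, CCNE2 1.90-fold (1.14 to 3.31) and 2.35-fold (1.52 to 3.68), and DTL 1.69-fold (1.26 to 2.31) and 1.74-fold (1.37 to 2.21). EXO1 was lower in mdR-H460 by 1.69-fold (1.26 to 2.30) and level in ldR-H460 (ratio 1.03, 0.836 to 1.26). PCNA and FEN1 were lower in ldR-H460 by 1.56-fold (1.4 to 1.74) and 1.74-fold (1.44 to 2.09), and in mdR-H460 were at 1.10 (0.980 to 1.24) and 1.09 (0.896 to 1.32) of the H460 level. CDCA7 was 1.37-fold (1.19 to 1.57) higher in ldR-H460 in this range, and so below 1.5-fold there.

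Over the set, 12, 8, 15 and 10 genes were under H460 by 1.5-fold or more in mdR-H460 in cells low in both sums, high in the replication sum only, high in both and high in the G2/M sum only, where 16.6%, 19.8%, 21.0% and 21.4% of genes at 10 CPM or more were. In ldR-H460 the counts were 5, 12, 24 and 14, against 25.1%, 23.9%, 19.7% and 20.4%. The ranges were cut on the summed UMIs of the set itself. In cells high in both, the median sum was 12 UMIs in H460, 10 in mdR-H460 and 9 in ldR-H460. The counts of 15 and 24 there were thus not taken at a matched sum. The filter at 10 CPM was not applied to the 41 genes, and POLA1, BLM, BRIP1, CCNE2 and E2F8 were under it in every library. With so few UMIs a gene can pass 1.5-fold by counting error, so these counts and shares are not fully comparable. Cells low in both sums stood out in ldR-H460, with 20 of the 41 genes at least 1.5-fold higher than in H460, where 11.2% of genes were. In that range TYMS was at 63.7 CPM in ldR-H460 against 27.8 in H460, RRM2 at 37.6 against 11.2, MCM7 at 47.5 against 17.1, and CDCA7 at 58.1 against 26.2. The median cell of this range had 3 UMIs of the set in ldR-H460 and 2 in H460, so this range was not filled alike either.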

How the data were processed

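Single cells of 3 cultures were profiled as 1 library each. Per the labels' protocols, suspensions were strained at 30 µm, loaded on a Chromium system aiming at 5000 cells, and made into 3' libraries with version 2 chemistry for a HiSeq 2500. The submitters' processing notes list Cell Ranger 3.0.2, Seurat 3.0 and GRCh38 and give no roles. The deposited tables hold raw UMI counts, with genes by symbol and only cells kept by the authors in quality control; no cell was removed here unless stated, and doublets were not called. Symbols absent from a table were set to 0.

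UMIs were summed per library and scaled to the library total (CPM). Sums have exact Poisson and ratios exact conditional binomial intervals at 95%, shares Clopper-Pearson intervals, all for counting error only. A floor of 3 UMIs per library or group of cells replaced a count of 0. In shares of all genes, and in ratios between ends of a ranking for genes outside the set, any smaller count was raised to this floor. Genes at 1 CPM or more in a library were counted past 1.5-fold. Cells were thinned with a fixed seed to 5000 UMIs for all measures per cell. Ratios between the top and bottom 25% of cells left the gene itself out of the ranking, and the scripts were tested on simulated data. Gene positions come from GENCODE 29 on GRCh38, promoters from RefSeq on GRCh38.p14. The genes and lists were chosen with earlier results of these data known. All 41 genes are named; of other lists, those of 10 or fewer in full and up to 6 genes with the largest ratio in either direction per pair, and of genes in no list the 10 with the largest lowest ratio between these ends, 1 of which is not reported here. Python 3.11.15, numpy 2.4.6, scipy 1.17.1, pandas 2.3.3, R 4.3.3, edgeR 4.0.16 (TMM factors) and DESeq2 1.42.0 (size factors) were used. Alternatives were other scalings, equal weight per cell, cells with at least 1000 UMIs or under 4000 genes, thinning to 2000 or 10000 UMIs, other fold thresholds and other rankings; the limit of 4000 genes for measures per cell was added after seeing the data.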

Additional observations from a re-analysis of the deposited data

How the results depend on the processing

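No paired analysis was possible because each group has 1 library, and for the same reason no replicate could be left out. Scaling moved all genes together: TMM raised the median log2 ratio of all genes by 0.18 (mdR-H460 against H460) and 0.12 (ldR-H460 against H460), and the median of the 41 genes less that of all genes stayed at -0.14 and -0.19. For mdR-H460 against H460 the median of the set was -0.12 with TMM, -0.13 with DESeq2 factors and -0.42 with cells weighted equally; 7 genes were lower among those at 10 CPM or more, 4 at 2-fold and 19 at 5/4-fold, and 1 was higher with TMM, with DESeq2 factors and at 5/4-fold. Of all genes, 15.0% were lower and 11.1% higher there with TMM, and 15.3% and 10.9% with DESeq2 factors. Shares of all genes were not computed at 2-fold or 5/4-fold, so no count at these thresholds is read as a result. For ldR-H460 against H460, 7 were lower and 2 higher with TMM and with DESeq2 factors, 7 and 3 in cells with under 4000 genes, 2 and 0 at 2-fold, and 20 and 5 at 5/4-fold. Of all genes, 17.8% were lower and 15.0% higher there with TMM, and 18.4% and 14.4% with DESeq2 factors. In cells with under 4000 genes, 22.3% and 12.1% of all genes were. For ldR-H460 against mdR-H460, 2 were lower with totals lacking mitochondrial and ribosomal protein genes and in cells with under 4000 genes, 1 lower and 6 higher with cells weighted equally, 1 lower in thinned cells, 0 and 0 at 2-fold, and 9 and 9 at 5/4-fold. Of all genes, 9.83% were lower with these totals and 11.3% in cells with under 4000 genes. With cells weighted equally 13.5% were lower and 17.2% higher, and in thinned cells 12.4% were lower. Of the 32 ratios past 1.5-fold, 24 to 32 stayed past it under each of 7 alternatives. CCNE2, CDC6 and CASP8AP2 in both derivatives, GINS2, BLM, BRIP1, DTL, EXO1 and WDR76 in mdR-H460, and PCNA, FEN1, CLSPN and CDCA7 in ldR-H460 stayed past it against H460 under all 7. ATAD2 and POLA1 in mdR-H460 and DTL, GINS2, TIPIN and UBR7 in ldR-H460 did not with TMM or DESeq2 factors, nor E2F8 in mdR-H460; BLM in ldR-H460 did not in thinned or equally weighted cells. Between the derivatives, BRIP1 and EXO1 stayed past it under all 7, CDCA7, PCNA and RPA2 under all but 1, and CDC45, FEN1 and TIPIN did not in 4 of the 7.

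Ranked by MCM2 to MCM7 alone, which hold few UMIs per cell, the median ratio between the top and bottom 25% of cells was 2.07, 2.02 and 1.501, with 21 genes past 1.5-fold in ldR-H460; between the top and bottom 10% it was 4.38 in ldR-H460. The order of ldR-H460 below both others held under all 7 rankings and thinnings run. The median share of cells with a UMI was 14.0%, 10.5% and 12.4%, at 2000 UMIs 6.36%, 3.92% and 5.65%, and 31.4%, 22.5% and 27.2% without thinning. Cells in the upper 10% of the summed UMIs were 21.2%, 13.2% and 10.8% at 2000 UMIs, and 4.34% of ldR-H460 at 10000. With limits at the upper 25% of both sums, cells high in the replication sum only were 24.5%, 14.4% and 15.7%, so H460 and ldR-H460 were alike only with limits at the median. Differences within ranges with few UMIs, such as those of BRIP1 and E2F8, were not detectable at this depth.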

Other observations

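Genes outside all lists, at 10 CPM or more in every library, were ordered by the lowest of their 3 top-to-bottom ratios. The first 10 included SASS6, DSN1, PKMYT1, HIST1H1D, CENPU, BRCA1, PSMC3IP, PDSS1 and FAM161A. SASS6, a scaffold protein of new centrioles, was 11.6-fold, 4.94-fold and 3.27-fold higher in the top than in the bottom 25% of cells of the 3 libraries (H460, then mdR-H460, then ldR-H460), ranked by the summed 41 genes. DSN1, a kinetochore subunit, had ratios of 15.9, 8.89 and 3.10, and BRCA1, a recombination factor, 17.3, 13.4 and 2.51. PSMC3IP, a cofactor of strand exchange, had 20.9, 9.29 and 2.49. HIST1H1D, a linker histone gene whose main transcripts lack a poly(A) tail, was counted in polyadenylated RNA and had 10.7, 9.87 and 2.65. PDSS1, an enzyme of coenzyme Q synthesis, had nearly the same ratio in each library, at 2.44, 2.70 and 2.58.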
